A study of Mus musculus with 4 samples.

Results

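The genes described here are the small GTPases of membrane traffic and a few proteins named for them, in NSCL61, a mouse glioma-initiating line made from neural stem cells, with and without a short hairpin RNA against Eva1. They were chosen by gene symbol alone: a symbol in the platform annotation that began with Rab or Arl and a digit, or with Sar1, or was Arf1 to Arf6. The rule found 80 probes for 79 genes among 23473 probes and 16390 genes with a symbol. Of these genes, 74 had a probe with a value on every array and were tested, among 13765 genes tested in all. The set holds 67 GTPases and, because their names start in the same way, 12 proteins that bind or regulate a Rab or an Arl, such as Rab3gap1 and Arl2bp.

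The study compared 2 arrays of NSCL61 cells carrying the Eva1 shRNA with 2 control arrays of NSCL61 cells. Both groups were the same cell line, from postnatal day P0 brain of strain C57BL6, so the results describe a single line. The labels give hygromycin selection for the shRNA cells, with durations that differ between protocol fields, and the series title speaks of a control hairpin in the other cells, but no label says that the controls were selected in the same way. No label mentions separate cultures within a group, and the p-values therefore reflect the spread between these 4 arrays alone, which may be technical. The assay was a 1-colour 3D-Gene microarray read with Cy5, on which amplified RNA gives each probe an intensity.

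Rab and Arf proteins are molecular switches: bound to GTP they sit on a membrane and recruit effectors, and bound to GDP they are inactive. Guanine nucleotide exchange factors (GEFs) turn them on, GTPase-activating proteins (GAPs) turn them off, and a prenyl anchor with the chaperones GDI and REP carries Rabs between membranes and cytosol. Each Rab marks a compartment, Sar1 and the Arfs recruit vesicle coats, and the Arls act at the Golgi, on lysosomes and in the cilium. In the nervous system the same proteins also serve synaptic vesicle release, neurite growth and the recycling of adhesion and growth factor receptors.

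The targeted gene is listed under its current symbol, Mpzl2. Its probe read 8.20 and 6.21 on the Eva1 shRNA arrays, against 55.0 and 54.4 on the control arrays. Mpzl2 was 8.72-fold lower in Eva1 shRNA cells (log2 change -3.12, SE 0.16, limma adjusted p = 0.00105), the direction that the labels give. Across probes, replicates correlated at r = 0.993 for Eva1 shRNA and r = 0.991 for control, and pairs that crossed the groups at r = 0.964 to 0.970. No value was given for 6.95% and 8.35% of probes in Eva1 shRNA cells, against 12% and 10.8% in control cells. Among markers of the line, Vim was far above the array median of about 25 on all 4 arrays and Nes above it, while Sox2, Prom1, Gfap, Slc1a3 and Cspg4 were not analysed here. Of 5 tested neural stem and glial markers, 0 rose and 2 fell in Eva1 shRNA cells. These were Fabp7 and Pdgfra, which mark radial glia and oligodendrocyte precursors (log2 changes -1.15 and -1.66, limma adjusted p = 0.00521 and 0.00290). Fabp7 read below 25 on every array. Vim (0.33), Nes (-0.47) and Olig2 (-0.66), the last at low readings, did not pass. In bulk samples such as these, fewer cells of a type and less RNA per cell cannot be told apart.

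Of the 74 tested members, 5 were higher in Eva1 shRNA cells, 11 were lower and 58 did not pass the test (limma, adjusted p under 0.05 over all genes). The 16 called members were 21.6% of those tested, against 26.0% of all genes. At these settings the share of called members was not above the background. Under some other settings it was, and those counts are given at the end. The 5 higher members were 6.76%, against 12.5% of all genes called higher, and the 11 lower members were 14.9%, against 13.5% of all genes called lower. The median log2 change of the members was -0.13, against -0.01 for all genes, and the median size of the change was 0.37 for members and 0.36 for all genes. The 2 groups of arrays did not overlap for 53 members (71.6%), against 66.7% of all genes. A change of at least 2-fold was called in 6 members, namely Rab39b, Rab32 and Rab8b, which rose, and Rab3a, Rab6b and Rab6a, which fell. Changes of that size were called in 11.6% of all genes.

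The split between directions depended on the scaling of the arrays. With the authors' scaling kept as deposited, the median change of all genes was 0.18 and that of the members -0.02, and 11 members were called higher and 6 lower. Of all genes called, 67.7% were then higher, against 48.1% after quantile normalization. Leaving out either Eva1 shRNA array left 4 members called (2 higher and 2 lower), and these were Rab39b, Rab32, Rab3a and Rab6b, which passed under all 16 alternatives run. The other 12 called members lost the call when 1 array was left out, with a highest adjusted p of 0.0556 (Rab8b) to 0.186 (Rab3gap2).

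**Figure D1:**
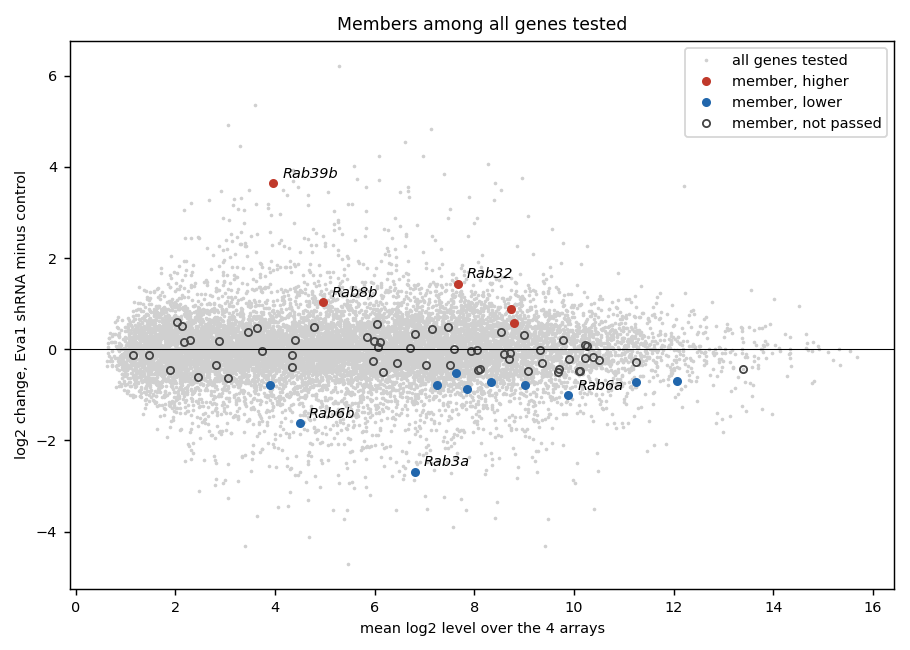
Each point is a gene, with its mean log2 level over the 4 arrays on the horizontal axis and its log2 change, Eva1 shRNA minus control, on the vertical axis. Grey points are all 13765 genes tested and coloured or open circles are the 74 members, of which most lie near 0 and Rab39b (3.64) and Rab3a (-2.69) lie far from it.

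The 4 members that passed under every alternative are shown first by the DNA before their start sites, since their calls held throughout. The windows are the 250 bases before the most upstream listed start, from RefSeq on build GRCm38.p6, 5′ to 3′ on the gene's strand, with capitals marking matches to the motifs named after them.
Rab39b, chrX:75578232-75578481, minus strand: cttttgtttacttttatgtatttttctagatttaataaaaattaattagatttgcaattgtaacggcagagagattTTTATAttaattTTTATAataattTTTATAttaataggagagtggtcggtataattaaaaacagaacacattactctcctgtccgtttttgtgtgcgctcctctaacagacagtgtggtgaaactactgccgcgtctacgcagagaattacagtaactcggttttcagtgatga
Rab32, chr10:10558208-10558457, minus strand: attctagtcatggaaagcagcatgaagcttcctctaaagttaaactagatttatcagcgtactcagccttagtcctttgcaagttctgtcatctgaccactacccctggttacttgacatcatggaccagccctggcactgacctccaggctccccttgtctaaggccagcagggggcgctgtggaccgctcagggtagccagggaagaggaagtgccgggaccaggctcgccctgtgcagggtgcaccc
Rab3a, chr8:70754453-70754702, plus strand: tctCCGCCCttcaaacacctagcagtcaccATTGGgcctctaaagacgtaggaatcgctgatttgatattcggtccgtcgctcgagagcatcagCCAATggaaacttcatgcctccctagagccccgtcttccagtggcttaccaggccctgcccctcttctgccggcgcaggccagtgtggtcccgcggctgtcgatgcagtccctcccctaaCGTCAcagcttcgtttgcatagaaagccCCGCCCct
Rab6b, chr9:103111824-103112073, plus strand: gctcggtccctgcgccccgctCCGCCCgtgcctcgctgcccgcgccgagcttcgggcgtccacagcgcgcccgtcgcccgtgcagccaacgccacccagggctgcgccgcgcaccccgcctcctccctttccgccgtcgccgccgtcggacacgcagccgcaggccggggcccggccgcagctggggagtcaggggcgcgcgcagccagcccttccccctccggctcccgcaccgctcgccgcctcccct

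These 4 windows had little in common. The Rab6b window was 80.8% G and C and held 40 CpG dinucleotides, and the Rab39b window was 31.6% G and C and held 8, against a median of 14 CpG over the windows of 11044 tested genes. The Rab32 window held 5 CpG and the Rab3a window 16. Motifs were searched on both strands: the GC box (GGGCGG), the CCAAT box, the TATA box (TATAAA), the E-box CACGTG, the core of the cyclic AMP response element (TGACG), the AP-1 site (TGANTCA) and the core of the hypoxia response element (ACGTG), which lies within the E-box. Rab3a held GC boxes, CCAAT boxes and TGACG, Rab6b held a GC box, Rab39b held TATAAA and Rab32 held none of these letters. Over the 15 called members with a RefSeq window, 8 held the GC box and 8 the CCAAT box, against 53.3% and 35.9% of tested genes. TGACG was in 9 of the 15 windows, of which 2 belonged to the 5 higher members and 7 to the 10 lower ones, against 24.4% of tested genes. TATAAA was in 1 window (8.96% of tested genes), as was CACGTG (7.84%) and with it ACGTG (20%), and TGANTCA was in 0 (5.51%). A match is a description of letters, and RefSeq windows were found for 68 of the 79 member genes.

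**Figure D2:**
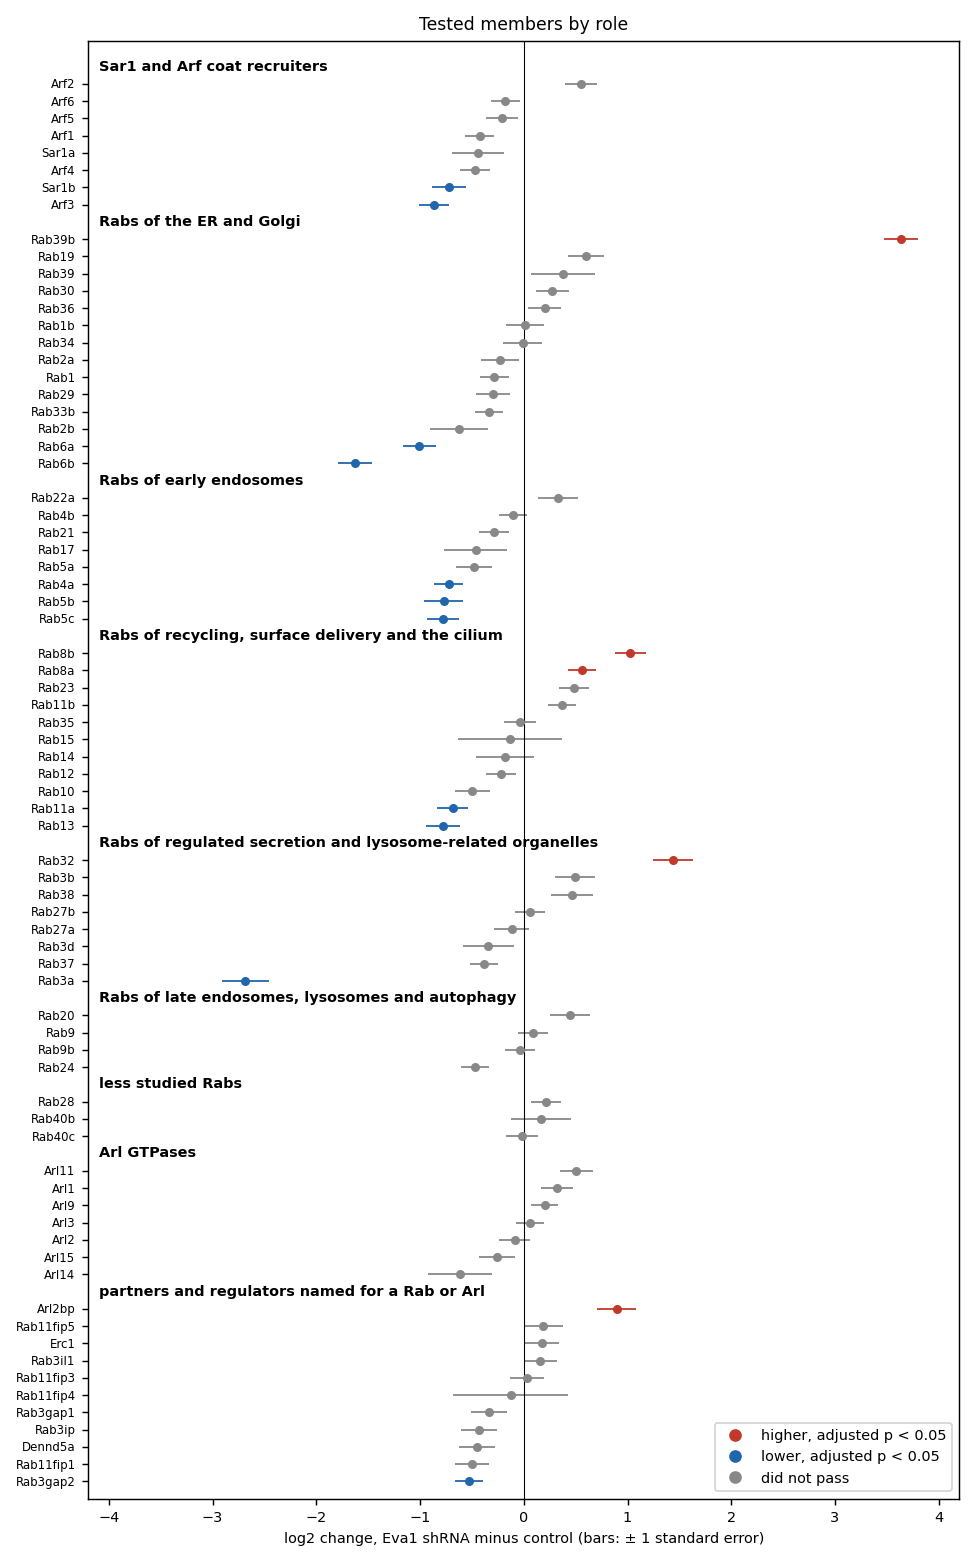
The log2 change of each of the 74 tested members, Eva1 shRNA minus control, grouped by role, with bars of 1 standard error. Most members lie within 1 unit of 0 and did not pass, and early endosome Rabs and Sar1 and Arf members lie mostly below 0, with Rab4b turning positive under the authors' scaling.

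Sar1 and the Arfs start the making of transport vesicles. Sar1b, which recruits the COPII coat at exits of the endoplasmic reticulum, read 2227 and 1748 in Eva1 shRNA cells, against 3014 and 2850 in control cells. Both Eva1 shRNA arrays lay below both control arrays, and Sar1b fell (log2 change -0.73, SE 0.16, adjusted p = 0.0292). Arf3, a class I Arf of the Golgi, read 181 and 184 in Eva1 shRNA cells, against 311 and 282 in control cells, again without overlap, and fell as well (-0.87, SE 0.14, adjusted p = 0.0123). The other 6 did not pass. Arf1, the main recruiter of the COPI coat, had a log2 change of -0.43 (adjusted p = 0.0773), Arf4 of -0.47 (adjusted p = 0.0698), and Arf5 and Arf6, which works at the cell surface, of -0.21 and -0.18. Sar1a was at -0.44 with overlapping arrays (697 and 809 in Eva1 shRNA cells, against 1164 and 736 in control cells). Arf2 alone of the 8 had a positive change, 0.55, and missed the threshold narrowly (adjusted p = 0.0504). The group had 0 higher and 2 lower members (25% lower, against 13.5% of all genes) and a median change of -0.43. Sar1b lost its call under the authors' scaling and with blank cells filled.

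Among 14 tested Rabs of the endoplasmic reticulum and Golgi, 1 rose, 2 fell and 11 did not pass, with a median change of -0.12. The higher and lower shares were 7.14% and 14.3%, against 12.5% and 13.5% of all genes. Rab39b is a neuronal Rab whose human gene, on the X chromosome, is mutated in intellectual disability with early parkinsonism. Its probe read 60.9 and 55.9 in Eva1 shRNA cells, against 3.54 and 4.79 in control cells. The groups were far apart, and Rab39b was 12.5-fold higher in Eva1 shRNA cells (log2 change 3.64, SE 0.16, adjusted p = 8.7e-04), the 19th largest rise among all genes. Because the control readings were near the lowest values of the arrays, adding 16 units to every intensity reduced the log2 change to 1.80.

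Rab6a and Rab6b direct retrograde traffic at the Golgi, with Rab6b found mainly in neurons. Rab6b read 15.7 and 12.4 in Eva1 shRNA cells, against 38.9 and 35.5 in control cells. Rab6a read 695 and 716 in Eva1 shRNA cells, against 1176 and 1378 in control cells. Both Rab6 genes were lower on both Eva1 shRNA arrays than on either control array, by 3.09-fold for Rab6b (log2 change -1.63, SE 0.16, adjusted p = 0.00333) and 2.01-fold for Rab6a (-1.01, SE 0.16, adjusted p = 0.0108). With 16 units added the change of Rab6b was -0.95. Rab1 and Rab2a, which act between the endoplasmic reticulum and the Golgi, did not pass, with log2 changes of -0.28 and -0.23. Rab1b was at 0.01 with a 95% interval of -0.44 to 0.46, Rab34 at -0.01, and Rab33b, an autophagy Rab of the Golgi, at -0.34. The remaining ones that did not pass were Rab2b (-0.62), Rab29 (-0.30), Rab36 (0.20), Rab30 (0.27), Rab39 (0.37) and Rab19 (0.60).

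All 3 called Rabs of early endosomes fell, of 8 tested (37.5%, against 13.5% of all genes called lower). The median change of the 8 was -0.47. Rab5 proteins drive the fusion of early endosomes and Rab4 the fast return of receptors to the surface. Rab5c read 404 and 435 in Eva1 shRNA cells, against 686 and 598 in control cells, and fell (log2 change -0.78, SE 0.15, adjusted p = 0.0204). Rab5b read 11.1 and 13.9 in Eva1 shRNA cells, against 17.0 and 19.4 in control cells, and fell by a like amount (-0.77, SE 0.19, adjusted p = 0.0361). Neither gene showed overlap between the groups. Rab5b is the called member whose readings lay below the array median on every array, and its change was -0.37 with 16 units added. Rab4a read 262 and 269 in Eva1 shRNA cells, against 410 and 372 in control cells, without overlap, and fell (-0.72, SE 0.14, adjusted p = 0.0198). Rab5a, the remaining Rab5 gene, was at -0.48 and did not pass (adjusted p = 0.101). Rab4b was at -0.10, Rab17 at -0.46, Rab21 at -0.29 and Rab22a, the only positive one of the 8, at 0.33, all short of the threshold. Rab17 read 3.41 and 3.30 in Eva1 shRNA cells, against 5.32 and 3.13 in control cells, and was at -0.10 with 16 units added. Rab5b lost its call under the authors' scaling and with blank cells filled.

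Rabs of recycling, surface delivery and the cilium moved both ways: of 11 tested, 2 rose, 2 fell and 7 did not pass. Each share was 18.2%, against 12.5% higher and 13.5% lower among all genes. Rab8a and Rab8b carry cargo from the Golgi and recycling endosomes to the plasma membrane and take part in building the primary cilium. Rab8b read 48.0 and 47.1 in Eva1 shRNA cells, against 21.1 and 19.5 in control cells. Rab8a read 579 and 574 in Eva1 shRNA cells, against 343 and 347 in control cells. Replicates were close and the groups did not overlap for either gene, and both rose, Rab8b by 2.04-fold (log2 change 1.03, SE 0.15, adjusted p = 0.00802) and Rab8a by 1.48-fold (0.57, SE 0.14, adjusted p = 0.0345). With 16 units added the change of Rab8b was 0.68, and Rab8a lost its call with the replicate number as a block.

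Rab11a, the marker of recycling endosomes, read 3624 and 3525 in Eva1 shRNA cells, against 5314 and 4714 in control cells. Rab13, known for the delivery of tight junction proteins, read 129 and 121 in Eva1 shRNA cells, against 169 and 210 in control cells. Both were lower on each Eva1 shRNA array than on either control array and fell (Rab11a -0.69, SE 0.15, adjusted p = 0.0256, and Rab13 -0.78, SE 0.16, adjusted p = 0.0230). Both calls were lost under the authors' scaling, and that of Rab13 also with blank cells filled. Rab10, which brings vesicles to the surface, was at -0.50 (adjusted p = 0.0823). Rab23, a negative regulator of hedgehog signalling in the mouse, read 218 and 226 in Eva1 shRNA cells, against 135 and 147 in control cells, a log2 change of 0.48 that did not pass (adjusted p = 0.0596). Rab11b was at 0.37 (adjusted p = 0.106), Rab12 at -0.22, Rab14 at -0.18, Rab15 at -0.13 and Rab35 at -0.03.

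Of 8 tested Rabs of regulated secretion and lysosome-related organelles, Rab32 rose and Rab3a fell, and 6 did not pass. Each share was 12.5%, against 12.5% higher and 13.5% lower among all genes. Rab3a is the Rab of synaptic and other regulated secretory vesicles. It read 40.4 and 54.9 in Eva1 shRNA cells, against 294 and 244 in control cells. Both Eva1 shRNA values lay far below both control values, and Rab3a was 6.44-fold lower (log2 change -2.69, SE 0.23, adjusted p = 0.00222), the 54th largest fall among all genes. Rab32, which serves the making of melanosomes and related organelles and anchors protein kinase A at mitochondria in human cells, read 357 and 355 in Eva1 shRNA cells, against 134 and 100 in control cells. It was 2.71-fold higher, without overlap (1.44, SE 0.19, adjusted p = 0.00653). Rab38, its close relative in melanosome formation, was at 0.46 and did not pass (adjusted p = 0.157). Rab27a and Rab27b, which dock secretory granules and exosome-bearing bodies, were at -0.12 and 0.06, with a 95% interval of -0.31 to 0.42 for Rab27b. Rab3b was at 0.49, Rab3d at -0.34 and Rab37 at -0.38.

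**Figure D3:**
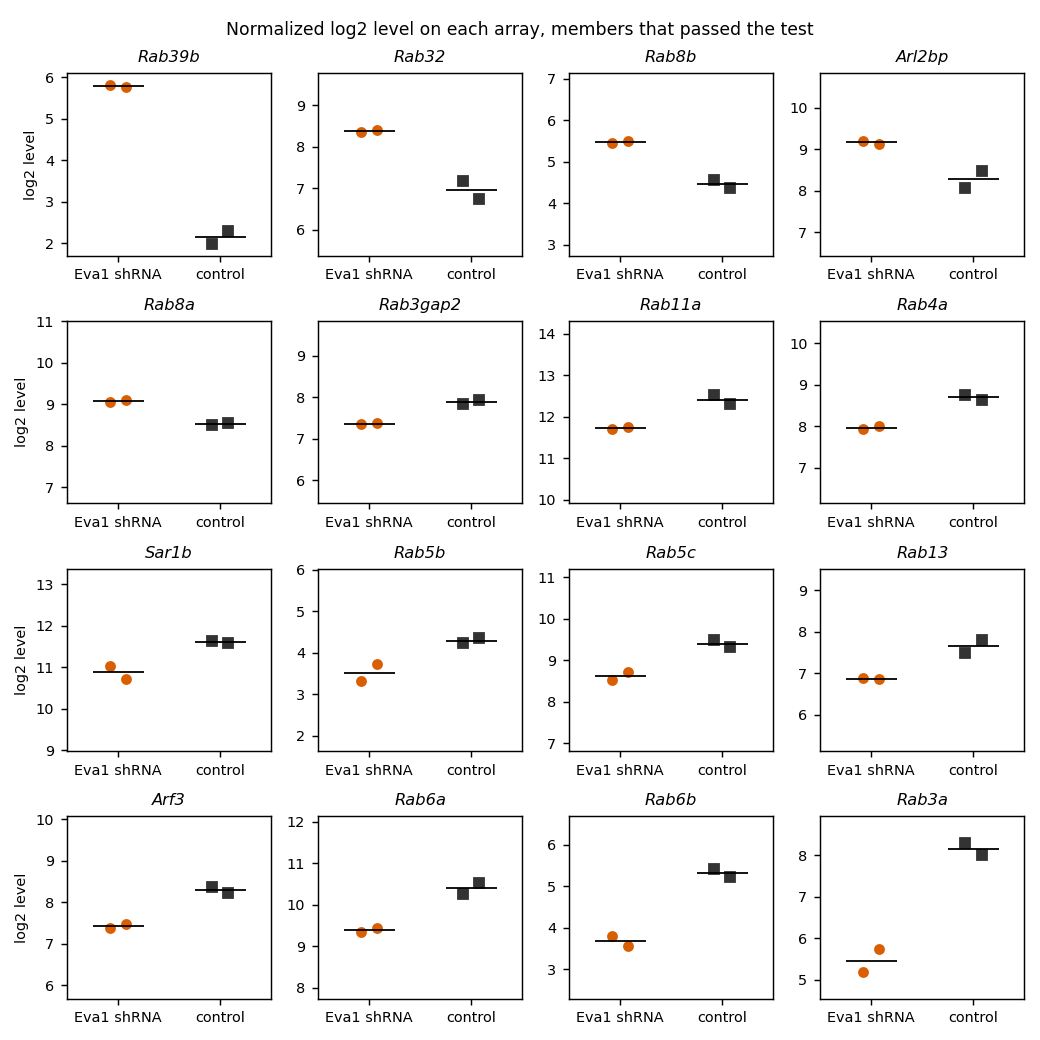
Normalized log2 level of each called member on each array, with Eva1 shRNA arrays to the left of control arrays in every panel and the same span of log2 units on each vertical axis. The groups do not overlap in any panel, and the gap is widest for Rab39b and Rab3a.

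No Rab of late endosomes, lysosomes and autophagy passed among 4 tested, and neither did any of 3 less studied Rabs or 7 Arl GTPases. Rab7, Arl6, Arl8a, Arl8b and Arl13b were not among the members, so these groups are incomplete. Rab9, which returns receptors from late endosomes to the Golgi, read 1291 and 1298 in Eva1 shRNA cells, against 1161 and 1035 in control cells, a log2 change of 0.09 after normalization. Rab24, linked to autophagy, read 993 and 1004 in Eva1 shRNA cells, against 1307 and 1204 in control cells, and its change of -0.47 missed the threshold (adjusted p = 0.0569). Rab20, a phagosome Rab, was at 0.44 and Rab9b at -0.03. Of the less studied Rabs, Rab28 was at 0.21, Rab40b at 0.17 and Rab40c at -0.01. Arl3, which releases lipid-anchored cargo inside cilia, read 1333 and 1310 in Eva1 shRNA cells, against 1175 and 1102 in control cells, a log2 change of 0.06 with a 95% interval of -0.28 to 0.40. Arl1, which recruits golgin tethers to the trans-Golgi, was at 0.32 (adjusted p = 0.189), Arl2, a regulator of tubulin folding, at -0.09, and Arl15 at -0.26. Arl9, Arl11 and Arl14, which read below 25 on every array, were at 0.20, 0.51 and -0.61.

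Of 11 tested partners and regulators named for a Rab or an Arl, 1 rose and 1 fell. Each share was 9.09%, against 12.5% higher and 13.5% lower among all genes. Arl2bp, which binds active Arl2, read 631 and 586 in Eva1 shRNA cells, against 253 and 336 in control cells, without overlap. It was 1.86-fold higher (log2 change 0.89, SE 0.19, adjusted p = 0.0236), a call that was lost with blank cells filled. Rab3gap2, the noncatalytic subunit of the Rab3 GAP, read 176 and 174 in Eva1 shRNA cells, against 218 and 233 in control cells. Its values did not overlap either and it fell (-0.53, SE 0.14, adjusted p = 0.0433), a call that was lost under the authors' scaling, with the replicate number as a block and with p adjusted over every probe. The catalytic subunit, Rab3gap1, was at -0.34 and did not pass (adjusted p = 0.208). Rab3ip and Rab3il1, exchange factors of Rab8, were at -0.43 and 0.16, and Dennd5a, annotated on the platform as Rab6ip1, was at -0.45. The Rab11 effectors Rab11fip1, Rab11fip3, Rab11fip4 and Rab11fip5 were at -0.50, 0.03, -0.13 and 0.19, and the tested probe of Erc1, a Rab6 partner, was at 0.17. None of these passed.

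The 5 genes without a test in the main comparison had a blank cell on at least 1 array and read low where they had a value. Rab25, an epithelial Rab, had a value of 1.32 on a single Eva1 shRNA array and blank cells elsewhere. Rab3c read 2.43 and 1.501 in Eva1 shRNA cells, against 1.86 on the filled control array. Rab11fip2 read 2.00 and 1.89 in Eva1 shRNA cells, against 2.05 on the filled control array, and a second Erc1 probe read 1.69 and 2.03 against 1.70. These values did not set the groups apart, and those of Rab31 and Rab33a are given with the closing observations.

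Many members are paralogs, close copies of a gene that arose by duplication, and 39 pairs within such sets were both tested. In 3 pairs both genes passed in the same direction: Rab6a with Rab6b and Rab5b with Rab5c fell, and Rab8a with Rab8b rose. In 14 pairs 1 gene passed and the other did not, in 22 pairs neither passed, and in 0 pairs did the genes pass in opposite directions. The signs were opposite in 16 pairs, which can include changes close to 0. The sequences of the probes were not used here, so cross-hybridisation between close paralogs was not tested.

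The difference between the changes of paralogs was taken directly. Its SE combined the SEs of the 2 genes as if they were independent, although both were read on the same arrays. With 16 units added, the changes of Rab39 and Rab39b were 0.16 and 1.80. Rab39 read low, at 18.5 and 9.83 in Eva1 shRNA cells, against 7.54 and 10.3 in control cells. Without added units, Rab3a minus Rab3b came to -3.18 log2 units (SE 0.30) and Rab39 minus Rab39b to -3.27 (SE 0.35). Arf2 minus Arf3 was 1.42 (SE 0.21), Rab11a minus Rab11b to -1.06 (SE 0.20), Rab4a minus Rab4b to -0.62 (SE 0.20) and Rab6a minus Rab6b to 0.62 (SE 0.23). Per-array gaps between the members of each of these pairs did not overlap between the groups. That held for 27 of the 39 pairs, and since 66.7% of all single genes did not overlap either, nothing is read from that count. Rab5b and Rab5c differed by 0.0032 (SE 0.24) and Sar1a and Sar1b by 0.28 (SE 0.30), with overlap. With 2 arrays against 2, the two-sided exact permutation test cannot go below p = 0.333 (0.481 after adjustment over the 39 pairs), so this test could call no pair whatever its size.

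**Figure D4:**
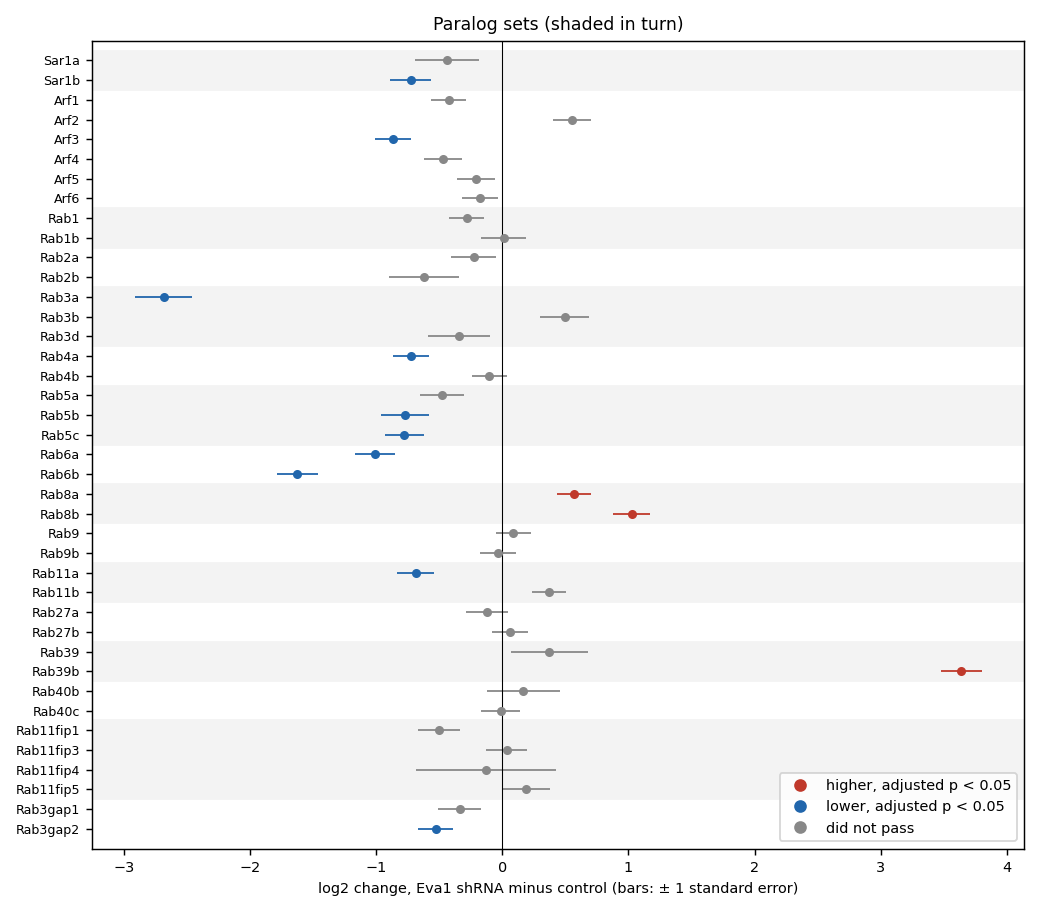
The log2 change of each tested member of a paralog set, Eva1 shRNA minus control, with bars of 1 standard error and sets shaded in turn. Rab3a lies far below Rab3b and Rab3d and Rab39b far above Rab39, while the Rab5 genes lie together below 0 and the Rab8 genes together above it. Rab3d, Rab39 and the control readings of Rab39b were low.

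Genes that load, activate, silence or read these GTPases were taken from 9 lists holding 252 genes, of which 229 were tested. Of these, 9 were higher, 39 lower and 181 did not pass, and the median log2 change was -0.15. The called share was 21.0%, below that of all genes, with 3.93% higher and 17.0% lower, against 12.5% and 13.5% of all genes. By list, the lower share was 0% for Rab prenylation, 15.8% for Rab GEFs, 25.7% for Rab GAPs and 14.7% for Rab effectors. It was 7.14% for Arf and Sar1 GEFs, 13% for Arf GAPs and 21.6% for coats. Exocyst, HOPS and retromer genes had 13%, and partners of Arls and the cilium 21.1%. Under the authors' scaling 22 of these genes were called higher and 23 lower, beside 2714 higher and 1295 lower among all genes. Leaving out 1 array gave between 8 and 25 lower calls.

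Exchange factors for Rabs numbered 38, of which 0 rose and 6 fell. Rin2, a GEF for Rab5, read 199.9 and 173 in Eva1 shRNA cells, against 1093 and 1216 in control cells. The groups were far apart and Rin2 fell more than any of the 74 members (log2 change -2.81, SE 0.15, adjusted p = 0.00105). Rgp1, part of the GEF complex of Rab6, fell by 1.03 on the log2 scale (adjusted p = 0.0128) from low readings and Trappc11, a subunit of the TRAPP tether and GEF complex, was at -0.98 (adjusted p = 0.0158). With 16 units added Rgp1 was at -0.33, and Trappc11 lost its call with blank cells filled. Of the other Rab5 GEFs, looked at after their values were seen, Rin3 also fell (-0.78, adjusted p = 0.0179), while Rabgef1 (-0.37), Rin1 (0.12) and Gapvd1 (-0.02) did not pass.

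Of 35 Rab GAPs tested, 1 rose and 9 fell. Grtp1 was at -1.40 (adjusted p = 0.00610) and Rabgap1l at -1.02 (adjusted p = 0.00896), and Tbc1d23, which in human cells tethers endosome-derived vesicles at the Golgi, was at 0.93 (adjusted p = 0.00892). With 16 units added Rabgap1l was at -0.65 and Tbc1d23 at 0.61. Among 34 Rab effectors, 2 rose and 5 fell. Appl2, an effector of Rab5 on early signalling endosomes, read 25.8 and 27.1 in Eva1 shRNA cells, against 124 and 120 in control cells, and fell (log2 change -2.40, SE 0.14, adjusted p = 0.00110). Its relative Appl1 was at -0.38 and did not pass (adjusted p = 0.125). Mical1, an actin-oxidising enzyme that binds Rabs, was at -1.90 (adjusted p = 0.00638) and Plekhm1, an adaptor of Rab7 on lysosomes, at -1.06 (adjusted p = 0.00639). Mical1 read low on every Eva1 shRNA array and was at -0.83 with 16 units added. Bicd1, which links Rab6 to dynein and was named after its value was seen, rose (1.20, adjusted p = 0.00785).

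Of 6 tested genes for Rab prenylation and membrane extraction, Rabggtb, a subunit of the Rab prenyltransferase, passed (0.52, adjusted p = 0.0496), a call lost under 10 alternatives. Rabif (-0.54, adjusted p = 0.0511) and Rabac1 (-0.43, adjusted p = 0.0730) did not pass. Of 14 GEFs for Arf and Sar1, Cyth1 rose (0.98, adjusted p = 0.00750) and Psd2 fell (-0.76, adjusted p = 0.0272), and Iqsec3 did not pass (-0.44). With 16 units added Cyth1 was at 0.59 and Psd2, at low readings, at -0.20, and the call of Psd2 was lost there and under the authors' scaling. Among 23 Arf GAPs, 2 rose and 3 fell, led by Acap1, a GAP for Arf6 that acts in receptor recycling. Acap1 read 7.42 and 4.97 in Eva1 shRNA cells, against 21.0 and 24.1 in control cells (log2 change -2.10, SE 0.20, adjusted p = 0.00301, and -0.89 with 16 units added). Adap2 was at -0.999 (adjusted p = 0.00929) and Arap2, at low readings, at -0.71 (adjusted p = 0.0236). With 16 units added these were -0.54 and -0.14, and the call of Arap2 was lost there and under the authors' scaling.

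Coat proteins recruited by Sar1 and the Arfs numbered 37, of which 2 rose and 8 fell. Ap1s2, a subunit of the clathrin adaptor AP-1 of the trans-Golgi and endosomes, read 113 and 108 in Eva1 shRNA cells, against 29.9 and 23.8 in control cells (log2 change 1.86, SE 0.18, adjusted p = 0.00304), and Ap1m1, named after its value was seen, was at 0.95 (adjusted p = 0.00902), while another AP-1 subunit, Ap1g2, fell at low readings (-0.96, adjusted p = 0.0356). The other 5 tested AP-1 subunits did not pass, namely Ap1b1 (-0.45), Ap1g1 (0.0047), Ap1m2 (0.30), Ap1s1 (-0.04) and Ap1s3 (0.09). The falls included Gga2, an Arf-dependent adaptor of the trans-Golgi (-1.21, adjusted p = 0.00607), and Ap3m2 (-1.08, adjusted p = 0.00609), a subunit of AP-3, the adaptor that sorts cargo to lysosomes and related organelles. Of the other AP-3 subunits, looked at after their values were seen, Ap3m1 (-0.98) and Ap3b1 (-0.80) fell, while Ap3d1 (0.49), Ap3s1 (-0.24) and Ap3s2 (0.43) did not pass.

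Of 23 genes of the exocyst, HOPS and retromer, 0 rose and 3 fell: Vps18 (-0.72, adjusted p = 0.0202) and Vps39 (-0.64, adjusted p = 0.0395), of the HOPS tether that Rab7 recruits to late endosomes, and Snx2 (-0.58, adjusted p = 0.0335), of the sorting nexins that work with retromer. Both Vps39 and Snx2 lost the call under the authors' scaling and with the replicate number as a block, and Vps39 also with blank cells filled. The other tested HOPS genes and their relatives did not pass, with Vps11 at -0.44, Vps16 at -0.63, Vps33a at 0.31, Vps33b at -0.44 and Vps41 at 0.25. The retromer core genes Vps26a, Vps29 and Vps35 did not pass (0.52, -0.31 and -0.04). Of 19 partners of Arls and the cilium, 0 rose and 4 fell. These were Pde6d (-0.66, adjusted p = 0.0225), which shuttles prenylated cargo released by Arl3, and 3 subunits of the BBSome, the ciliary coat that Arl6 recruits: Bbs9 (-0.95, adjusted p = 0.0264), Bbs2 (-0.66, adjusted p = 0.0365) and Ttc8 (-0.66, adjusted p = 0.0421), the last named after its value was seen. The other tested BBSome genes, Bbs1 (0.22), Bbs4 (0.39), Bbs5 (-0.25) and Bbs7 (0.49), did not pass. Pde6d and Bbs2 lost the call under the authors' scaling, Bbs2 and Bbs9 with blank cells filled, and Bbs2 with the replicate number as a block. Of the 24 genes named by the rule from these lists that passed, 9 kept the call whichever array was left out and 6 passed under every alternative (Rin2, Grtp1, Appl2, Mical1, Acap1 and Ap1s2).

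Markers of other cell types were read beside these changes. Summed intensities of microglia and leukocyte markers were 159 to 165 in Eva1 shRNA cells and 212 to 240 in control cells, with 1 of 4 tested lower (Cd68, -1.17) and Aif1, Csf1r and Cx3cr1 at -0.09, 0.25 and 0.54 without a call. Those of fibroblast and mural markers were 1149 to 1293 in Eva1 shRNA cells and 825 to 912 in control cells, with Col1a2 and Pdgfrb higher (2 of 6 tested). Col3a1, which made up most of that sum, was at 0.50 and did not pass (limma adjusted p = 0.0728), and Dcn, Lum and Col1a1 had negative changes without a call (-2.02, -0.56 and -0.15). Neuronal markers, of interest for Rab39b, Rab3a and Rab6b, summed to 92.9 to 111 in Eva1 shRNA cells and 66.0 to 67.0 in control cells, with 1 of 4 higher (Tubb3, 0.84) and Snap25, Syt1 and Map2 at 0.13, -0.56 and -0.26 without a call. The 2 endothelial and 2 epithelial markers tested read below 25 on every array, with Emcn higher in Eva1 shRNA cells. The part of these markers in the changes of the members was not tested.

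**Figure D5:**
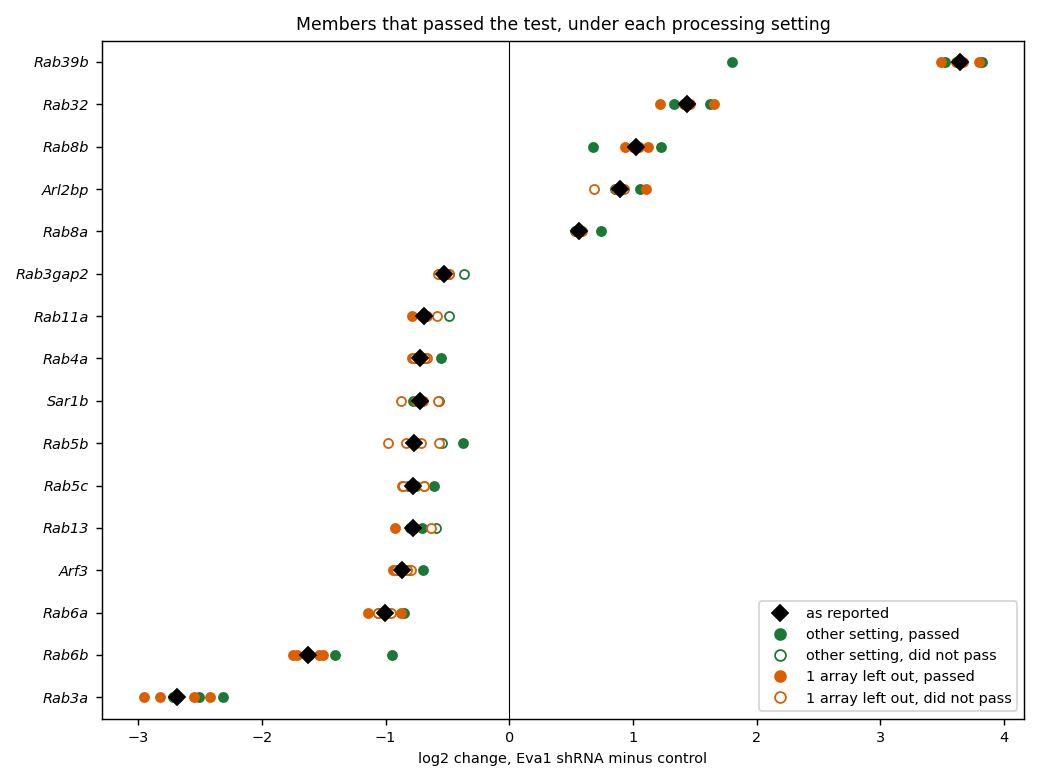
For each called member, the log2 change as reported (diamond), under each other processing setting (green) and with 1 array left out (orange), with open circles where the gene did not pass. The direction is kept throughout, and Rab39b, Rab32, Rab3a and Rab6b have no open circle.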

How the data were processed

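Mouse NSCL61 cells were measured on 4 arrays, grouped by sample title into 2 Eva1 shRNA and 2 control arrays. The deposited values are intensity on a linear scale, which the authors appear to have scaled, since every array has a median near 25. No source used here gives the background correction or the rule for blank cells. Probes were named by the platform annotation, with symbols updated through a RefSeq table: of the distinct symbols 12501 were current, 3883 updated, 59 ambiguous (Rab1 among them) and 3 unmatched.

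Log2 intensities of the 19199 probes with a value on all 4 arrays were quantile normalized, since array medians differed by 0.274 on the log2 scale, and the probe with the highest mean stood for its gene. Groups were compared with limma 3.58.1 (lmFit, eBayes, two-sided) in R 4.3.3, with Benjamini-Hochberg adjustment over 13765 genes and a threshold of 0.05. Precision is limited by the number of arrays, which leaves 2 residual degrees of freedom for each gene. The code was tested on simulated data. Promoter windows were read with Python 3.11.15 and plots drawn with matplotlib 3.10.9.

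Members, roles, paralog sets and gene lists were chosen with earlier results of these data known, so no count of them is independent support. Named with values were the targeted gene, up to 12 rises and 12 falls among members that passed without overlap and with the brighter group above the array median, paralogs, up to 2 members per role that did not pass, and 3 genes per list with the smallest p; all other members are given by role. Alternatives changed the scaling, centring, dim probe filter, added units, blank cells, replicate block, eBayes options, probe rule, threshold and arrays used. Deviations of same-numbered arrays correlated at -0.0247, so the numbers were not taken as pairs.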

Additional observations from a re-analysis of the deposited data

Results flagged for a closer look

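Rab31 and Rab33a were left out of the test because a control array had a blank cell, and their Eva1 shRNA readings lay above the control reading that was given. Rab31, an endosomal and trans-Golgi Rab, read 3.93 and 3.82 in Eva1 shRNA cells, against 2.75 on the filled control array. Rab33a, a Golgi Rab related to Rab33b, read 2.32 and 2.15 in Eva1 shRNA cells, against 1.44 on the filled control array. All of these readings were near the lowest values of the arrays, and the differences were not tested in the main comparison. With blank cells filled, the genes with blank cells entered the fit. There, a gene from among them was called higher, resting on a filled cell, and it is not identified here.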

How the results depend on the processing

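Member counts were 5 higher and 11 lower. The authors' scaling gave 11 and 6, leaving out the dimmest 25% of probes 8 and 20, 16 added units 9 and 21, the eBayes trend 9 and 19, an adjusted p under 0.1 9 and 17, and limma's treat at 1.5-fold 2 and 2. Leaving out 1 array gave 2 to 4 higher and 2 to 9 lower. All genes, 1720 higher and 1856 lower, gave 2714 higher and 1295 lower with the authors' scaling, 369 and 480 with treat, and 509 to 1191 and 694 to 1215 without 1 array. Leaving out the dimmest probes kept 64 members and gave 2251 and 2291 of all genes. With 16 added units all genes gave 2445 and 2469, with the trend 2490 and 2510, and at 0.1 2484 and 2545. The called shares of all genes in these 4 settings were 42.5%, 35.7%, 36.3% and 36.5%. The called share of members was above these without the dimmest probes, with 16 added units and with the trend, and below at 0.1. All-gene shares were 29.1% with the authors' scaling, 6.17% with treat, 22.5% with the replicate block and 15.4% with filled blanks. The member share was below these except with filled blanks, where it was slightly above. These differences in share were not tested. Regulator and coat genes, 9 higher and 39 lower, gave 22 and 23 with the authors' scaling, 22 and 53 without the dimmest probes, 19 and 61 with 16 added units, 19 and 59 with the trend, 22 and 57 at 0.1, 1 and 5 with treat, and 1 to 8 and 8 to 25 without 1 array. With the replicate block the members gave 4 higher and 10 lower (Rab8a and Rab3gap2 lost the call), all genes 1471 and 1631, and the lists 6 and 31. Median centring, robust eBayes and the mean of probes left 5 and 11 members called, and every probe 5 and 10. Blanks filled with the lowest value of each array gave 5 and 8, with 12 of the 16 calls kept. Arl2bp lost its higher call there, and a gene with a blank cell, outside the 74 tested members, was called higher. Some members without a call passed elsewhere. Rab23 and Arf2 passed under the authors' scaling, without the dimmest probes, with 16 added units, with the trend and at 0.1. Rab24, Rab10, Arf1, Arf4 and Rab11fip1 passed under all of these but the authors' scaling. No called member turned its sign. Among members without a call, signs turned in 7 under the authors' scaling, 1 under median centring, and 2 to 8 without 1 array. Why the counts moved was not tested. With 2 arrays a group and no stated separate cultures, low readings such as those of Rab5b, Rab19 and the blank-cell genes limit what can be said.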

Other observations

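Ras family genes, listed after the data were seen, gave a view beyond the trafficking GTPases. Of 27 tested, 3 were higher and 6 lower in Eva1 shRNA cells (33.3% called, against 26.0% of all genes). Gem, a GTPase that restrains voltage-gated calcium channels, read 289 and 293 in Eva1 shRNA cells, against 960 and 837 in control cells, and fell (log2 change -1.78, SE 0.14, limma adjusted p = 0.00212). Rasl10a (-2.42), Rap2a (-1.32), Rem2 (-1.01), Rras (-0.76) and Rala (-0.72), which recruits the exocyst, fell too, and Rit1 (0.88), Rrad (0.73) and Diras1 (0.54) rose. Diras1 read low, at 4.55 and 4.29 in Eva1 shRNA cells, against 2.49 and 2.88 in control cells (limma adjusted p = 0.0405). Of 8 tested Rab and Arf relatives that the symbol rule leaves out, Rabl2 fell (-0.82, adjusted p = 0.0231) and 7 did not pass. These lists were chosen with the results known, and their shares are descriptions.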
